A study of Mus musculus with 16 samples.

Results

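*Hnrnpr* and *Syncrip* encode a pair of closely related RNA-binding proteins, hnRNP R and SYNCRIP (also called hnRNP Q). They are 2 of the 46320 genes in the count table and were taken from it by gene symbol. The question was how both RNAs were distributed between the compartments of cultured mouse motoneurons, and whether the RNA of the paralogue was higher where *Hnrnpr* was lost. Motoneurons were enriched from the lumbar spinal cord of E13 embryos by panning on an antibody to p75NTR, a neurotrophin receptor, and grown in microfluidic chambers that separate cell bodies and dendrites from axons. All cultures received CNTF in both compartments and BDNF in the axonal compartment alone. The 16 poly(A) RNA libraries fall into 4 groups of 4: +/+ (wildtype) somatodendritic, Hnrnpr-/- somatodendritic, +/+ axonal and Hnrnpr-/- axonal. The Hnrnpr-/- mice carry a CRISPR/Cas9 deletion of exons 1 to 5 in the germ line, backcrossed to C57Bl/6, so that every cell of the culture lacks it, whichever cell type it is. The labels do not say how many embryos or chambers stand behind a library, so p-values measure the spread between libraries, which may in part be technical.

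hnRNP R and SYNCRIP share one architecture, an acidic domain at the amino terminus followed by RNA recognition motifs and a carboxy-terminal stretch rich in arginine and glycine. Both are found in the nucleus and in the cytoplasm, where they take part in mRNA splicing, stability, transport and translation, and both occur in RNA granules of neurites. In motoneurons hnRNP R binds the survival motor neuron protein SMN and β-actin mRNA, and SYNCRIP is also known to interact with SMN.

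*Hnrnpr* lies on chromosome 4 of the mouse genome build GRCm39 (chr4:136038230-136086758, plus strand), and *Syncrip* on chromosome 9 (chr9:88331417-88364645, minus strand). The GENCODE transcript Hnrnpr-202 codes for 632 residues in 1896 bases, spread over 11 exons. Its last exon is 20029 bases long and makes up 93.27% of the transcript. Syncrip-205 codes for 623 residues in 1869 bases, also in 11 exons, and its last exon holds 1152 bases. The protein sequences translated from these transcripts are identical at 523 of 620 aligned residues (84.35%), whereas the coding sequences are identical at 1407 of 1860 aligned bases (75.65%). The most alike 100 bases without a gap, which match the length of a sequencing read, are shown here from the coding strand, 5′ to 3′, with the 14 bases that differ in capitals. They code for residues 78 to 111 of hnRNP R (coding bases 233 to 332) and residues 75 to 108 of SYNCRIP (coding bases 224 to 323).
Hnrnpr: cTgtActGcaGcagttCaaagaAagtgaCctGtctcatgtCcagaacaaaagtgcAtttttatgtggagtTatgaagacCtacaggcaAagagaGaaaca
Syncrip: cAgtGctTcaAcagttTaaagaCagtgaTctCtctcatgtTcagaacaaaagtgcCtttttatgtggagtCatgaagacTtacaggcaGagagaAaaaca
The longest run of identical coding bases was 22. None of the 25377 distinct 100-base windows in the annotated *Hnrnpr* transcripts occurred in a *Syncrip* transcript (0 windows), and none of the 13081 *Syncrip* windows in an *Hnrnpr* transcript. By the annotated sequences, reads of the pair were therefore separable at full length. Other genes held 2.743% of the *Hnrnpr* windows (the overlapping antisense lncRNA Gm27022 with 520 windows and the pseudogene Gm6159 with 176) and 5.879% of the *Syncrip* windows (the overlapping gene Gm20537 with 248 and the pseudogene Gm6501 with 521). These windows refer to GENCODE, whereas the counts were made over RefSeq genes, with reads that aligned to several places shared out in fractions. The one gene listed in the count table as overlapping a member was LOC118568698, at the end of *Hnrnpr*.

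**Figure D1:**
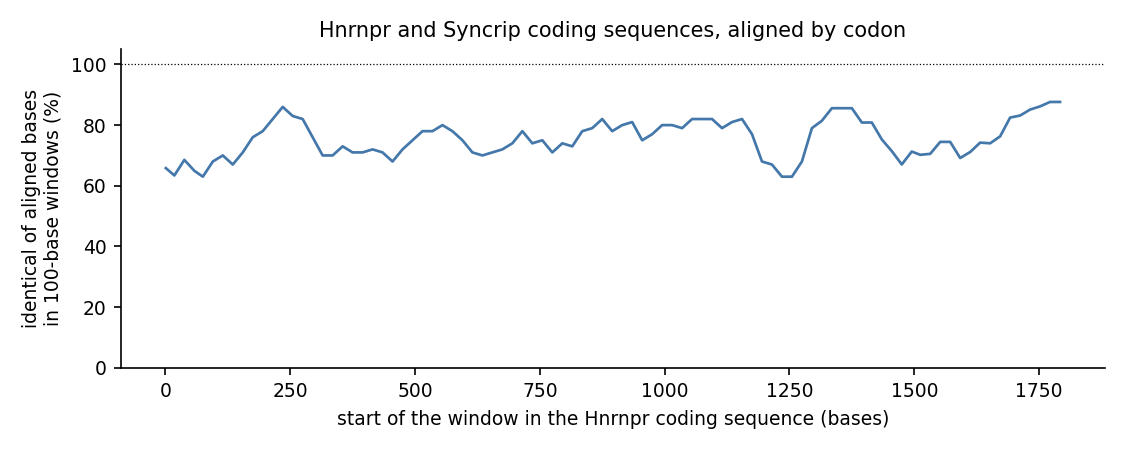
Identity of the *Hnrnpr* and *Syncrip* coding sequences. The x axis gives the start of a 100-base window in the *Hnrnpr* coding sequence and the y axis the percentage of aligned bases that are identical (gaps left out of the denominator). The line stays below the dotted line at 100% along the whole coding sequence, and its lowest windows lie at 63%.

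By the numbering of Hnrnpr-202, exons 1 to 5 hold 655 bases, which is 3.05% of that transcript, and 498 of them are coding (26.27% of the coding sequence, with the start codon in exon 2). The deletion thus left 96.95% of the transcript's length in the genome to be counted. The pair of qPCR primers that the study lists for *Hnrnpr* is shown because it also lies outside the deletion, within exon 11.
Hnrnpr-Fwd: gcagtttgctgccatttgta
Hnrnpr-Rev: gccccagaataagggaactc
The forward primer matched chr4:136067436-136067455 on the plus strand and the reverse primer chr4:136067545-136067564 on the minus strand, and neither matched a *Syncrip* transcript (0 matches).

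The libraries held 22024923 to 34864151 counts each. The motoneuron markers (*Chat*, *Slc18a3*, *Slc5a7*, *Isl1*, *Isl2*, *Mnx1* and *Prph*) summed to 13.1 to 29.9 CPM (counts scaled to the size of the library) in +/+ somatodendritic libraries and 16 to 22.2 CPM in Hnrnpr-/- ones, and to 3.9 to 16.4 and 2.85 to 9.62 CPM in the axonal groups. *Mnx1* was at 0 in all libraries of 3 groups and had at most 2 counts in an Hnrnpr-/- axonal library. Markers of astrocytes or radial glia summed to 1030 to 1443 CPM in +/+ and 951.8 to 2156 CPM in Hnrnpr-/- somatodendritic libraries, well above the sums of the motoneuron markers. The axonal libraries held 2123 to 5140 CPM of these glial markers in +/+ and 1999 to 3996 CPM in Hnrnpr-/-, ranges that overlapped with the highest somatodendritic library. Axonal libraries were amplified with more PCR cycles and a larger reaction volume than somatodendritic ones, a difference that cannot be told apart from that between compartments.

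*Hnrnpr* RNA fell to near the limit of counting in both compartments of Hnrnpr-/- motoneurons. In the somatodendritic compartment it was measured at 178.4, 205.9, 189.6 and 240.7 CPM in the 4 +/+ libraries and at 0.659, 1.08, 0.545 and 1.16 CPM in the 4 Hnrnpr-/- libraries. In the axonal compartment it was 163.8, 422.1, 143.7 and 120.0 CPM in +/+ and 1.10, 0.994, 0.810 and 0.597 CPM in Hnrnpr-/- libraries. The lowest +/+ library was thus far above the highest Hnrnpr-/- library in either compartment, which checks the genotype labels of all 16 libraries. The remaining signal came from 13 to 27 counts per somatodendritic and 18 to 38 counts per axonal library, and what produced it was not tested.

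The log2 fold change of *Hnrnpr* was -7.88 (SE 0.47, edgeR's quasi-likelihood test, adjusted p = 6.8e-07) in the somatodendritic compartment, which leaves 0.424% of the +/+ level (95% confidence interval 0.212 to 0.847%). In axons it was -7.91 (SE 0.47, adjusted p = 5.9e-07), or 0.416% (0.209 to 0.826%). The difference of mean CPM gave p = 0.0286 in each compartment in an exact two-sided permutation test, the smallest value that 4 against 4 libraries allow. *Hnrnpr* was the one gene of 19964 tested past the adjusted threshold of 0.05 in the somatodendritic compartment, 0.00501% of all, and one of 2 in axons, 0.01% of all. The low level in Hnrnpr-/- libraries covered the retained exons too, since these make up nearly all of the counted length.

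**Figure D2:**
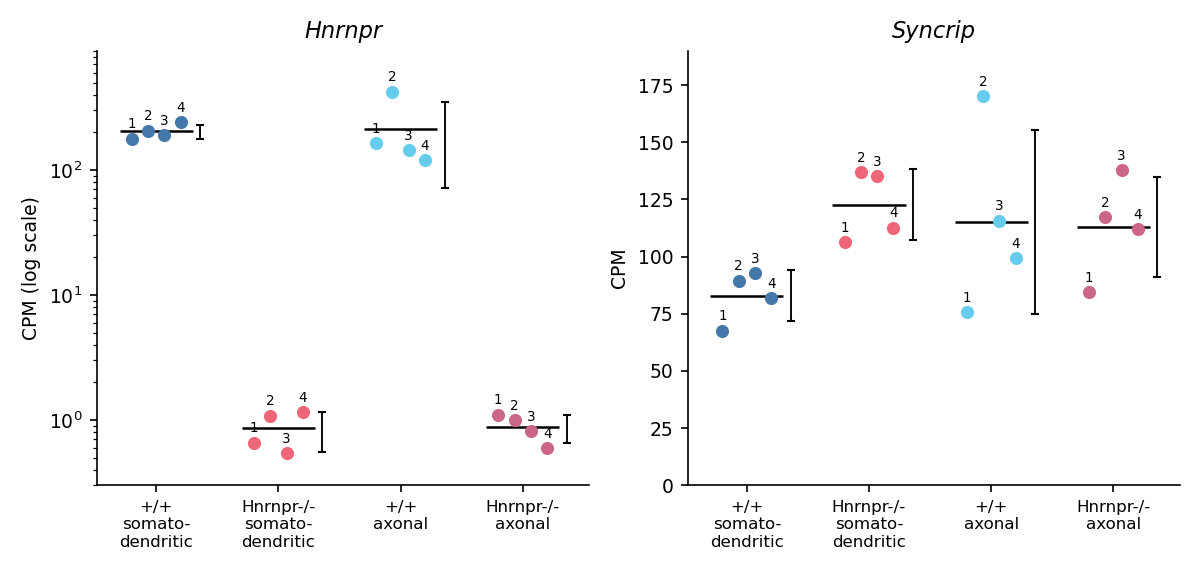
*Hnrnpr* (left, log scale) and *Syncrip* (right, linear scale from 0) in CPM in each library. Points carry the replicate number, horizontal lines are group means and vertical bars are ± SD (n = 4). *Hnrnpr* lies above 100 CPM in all 8 +/+ libraries and at or below 1.16 CPM in all 8 Hnrnpr-/- libraries, while the 4 Hnrnpr-/- somatodendritic *Syncrip* points, 106.4 CPM and upwards, lie above the 4 +/+ points.

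*Syncrip* RNA was higher in every Hnrnpr-/- somatodendritic library than in every +/+ one, but the difference did not pass the test across all genes. The +/+ libraries held 67.7, 89.5, 92.8 and 81.9 CPM of *Syncrip* (1744 to 2243 counts). The Hnrnpr-/- libraries held 106.4, 136.8, 135.1 and 112.7 CPM (2584 to 3225 counts). The means were 83.0 ± 11.2 and 122.7 ± 15.5 CPM (SD, n = 4), and the groups did not overlap.

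The somatodendritic log2 fold change of *Syncrip* was 0.57 (SE 0.22, 95% confidence interval 0.10 to 1.04), a ratio of 1.48 (1.07 to 2.05). edgeR's quasi-likelihood test gave an unadjusted p = 0.0215 and an adjusted p = 1. Among the 19964 genes tested, 0.601% had an unadjusted p this side of 0.05, *Syncrip* came 39th when ordered by p, and it came 1369th when ordered by log2 fold change from the highest. The difference of means, 39.8 CPM, had p = 0.0286 in the exact permutation test, the lowest possible with these group sizes, and all Hnrnpr-/- libraries lay above all +/+ libraries for 0.766% of genes tested. In a bulk library, fewer cells of a type and less RNA per cell cannot be told apart, so these levels are averages over all cells of the compartment.

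Fitted with the 8 somatodendritic libraries alone, the log2 fold change of *Syncrip* was again 0.57, with a smaller SE of 0.13 (unadjusted p = 0.00122, 4th of all genes by p, adjusted p = 0.999 in edgeR). Leaving out any one of the 16 libraries kept it between 0.49 and 0.63, with the unadjusted edgeR p between 0.00667 and 0.0569. Without +/+ somatodendritic replicate 1, the library with the lowest *Syncrip* level, it was 0.49.

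Most markers of other cell types had positive fold changes in Hnrnpr-/- somatodendritic libraries. None passed the adjusted threshold (edgeR, 0 also at an unadjusted p below 0.05). Of all genes 0.00501% passed it and 0.601% had an unadjusted p below 0.05, so that 0 was near the share of all genes. The log2 fold changes were positive for 5 of 6 astrocyte or radial glia markers (median 0.32), 6 of 6 tested oligodendroglia or Schwann cell markers (0.60), 6 of 6 fibroblast or meningeal markers (1.14) and 5 of 6 microglia markers (0.86), against a median of 0.00 over all genes. Fibroblast or meningeal markers summed to 60.5 to 406.3 CPM in +/+ and 97.9 to 1233 CPM in Hnrnpr-/- somatodendritic libraries, oligodendroglia or Schwann cell markers to 203 to 849.7 and 283.1 to 1033 CPM, and microglia markers to 7.79 to 29.7 and 6.67 to 83.2 CPM. With the mean log2 level of these markers as a covariate, chosen after the data were seen, the log2 fold change of *Syncrip* was 0.58 (edgeR adjusted p = 1). This is 1 averaged score over few libraries, and the part of each cell type was not tested.

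In axons no difference in *Syncrip* between the genotypes was seen beyond the spread between libraries. The +/+ axonal libraries held 75.6, 170.0, 115.7 and 99.3 CPM (2220 to 6288 counts), a mean of 115 ± 40.1 CPM (SD, n = 4). The Hnrnpr-/- axonal libraries held 84.5, 117.3, 137.7 and 111.9 CPM (2906 to 4590 counts), a mean of 113 ± 21.96 CPM. The groups overlapped along most of their range. The log2 fold change was -0.03 (SE 0.22, 95% confidence interval -0.50 to 0.44, adjusted p = 1 in edgeR), which spans ratios from 0.708 to 1.36, and the unadjusted p of 0.895 compares with 3.88% of genes below 0.05. The difference of -2.33 CPM had p = 0.971 in the exact permutation test. The sign rested on single libraries, since the log2 fold change was 0.22 without +/+ axonal replicate 2 and -0.18 without +/+ axonal replicate 1.

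Whether the genotype effect on *Syncrip* differed between the compartments was tested directly. The axonal log2 fold change minus the somatodendritic one was -0.59 (SE 0.31, 95% confidence interval -1.26 to 0.07, edgeR unadjusted p = 0.0750, adjusted p = 1.0). No gene passed the adjusted threshold for this difference (0% of 19964 with edgeR and 1 gene with DESeq2 at its default settings), and 1.33% had an unadjusted p below 0.05. The same difference was negative for 6 of 6 astrocyte or radial glia markers (median -0.49), 6 of 6 fibroblast or meningeal markers (-1.14) and 5 of 5 nuclear RNAs (-0.48), and for 2 of 6 oligodendroglia or Schwann cell markers (median 0.16) and 2 of 6 microglia markers (0.07). Their part in the *Syncrip* value was not tested. With same-numbered somatodendritic and axonal libraries taken as pairs the *Syncrip* difference was -0.55 (unadjusted p = 0.0368, adjusted p = 1 in edgeR). Without +/+ axonal replicate 2 the unpaired *Syncrip* difference was -0.34, and without +/+ axonal replicate 1 it was -0.75 (edgeR adjusted p = 1 in both fits). For *Hnrnpr* itself the difference was -0.03 (SE 0.53, adjusted p = 1.0).

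Neither RNA passed the unpaired test between axons and the somatodendritic compartment of +/+ motoneurons, and both comparisons rested in part on axonal replicate 2. *Hnrnpr* averaged 203.6 ± 27.1 CPM in the cell body compartment of +/+ motoneurons and 212 ± 141 CPM in their axons (SD, n = 4), with 1 axonal library above and 3 below the whole somatodendritic range. Its log2 ratio of axonal to somatodendritic level was 0.06 (SE 0.34, adjusted p = 0.889 in edgeR), and without axonal replicate 2 it was -0.52 (unadjusted p = 0.0416, adjusted p = 0.068). *Syncrip* had a log2 ratio of 0.47 (SE 0.22, 95% confidence interval 0.00 to 0.94, adjusted p = 0.0778), with 3 of 4 axonal libraries above all somatodendritic ones. Paired by replicate number, this ratio passed the threshold (0.42, adjusted p = 0.0494 in edgeR), and without axonal replicate 2 the unpaired value was 0.22 (adjusted p = 0.337). All 6 astrocyte or radial glia markers and all 6 fibroblast or meningeal markers also had positive ratios in these libraries (medians 0.92 and 1.501), and their part in the ratios of *Hnrnpr* and *Syncrip* was not tested.

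In Hnrnpr-/- motoneurons the log2 ratio of axonal to somatodendritic *Syncrip* was -0.12 (SE 0.22, adjusted p = 0.661 in edgeR), and that of the few remaining *Hnrnpr* counts was 0.03 (SE 0.40, adjusted p = 0.955). Over all genes, 57.5% passed the adjusted threshold between the compartments in +/+ and 54.2% in Hnrnpr-/- libraries. Ordered by mean level, *Syncrip* was lowest in the +/+ somatodendritic group and highest in the Hnrnpr-/- somatodendritic group, and both axonal groups lay between. Neighbours in this order differed by less than the sum of their SDs.

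The levels of the paralogues can be compared only per length, and for this pair the result depends on which length is used. By combined exon length (22053 bases for *Hnrnpr*, 7909 for *Syncrip*), +/+ somatodendritic libraries held 8.09, 9.34, 8.60 and 10.9 CPM per kilobase (RPKM) of *Hnrnpr*. The same libraries held 8.56, 11.3, 11.7 and 10.4 RPKM of *Syncrip*, so that the ratio of *Hnrnpr* to *Syncrip* was 0.889 ± 0.140 (SD, n = 4). By coding length the ratio was 2.44 ± 0.385. In +/+ axons it was 0.636 ± 0.232 by exon length and 1.75 ± 0.639 by coding length. Either way the pair was of the same order of abundance, and which member was the more abundant changed with the scale.

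The mean sum of the pair was lower in Hnrnpr-/- than in +/+ libraries on both scales. By exon length, single libraries of the genotypes overlapped in both compartments. The lowest +/+ sums were 16.6 RPKM (somatodendritic) and 17.0 RPKM (axonal), against highest Hnrnpr-/- sums of 17.3 and 17.5 RPKM. By coding length the genotypes did not overlap. In the somatodendritic compartment the mean sum was 19.7 ± 2.09 RPKM in +/+ and 15.6 ± 1.96 RPKM in Hnrnpr-/- libraries (SD, n = 4), or 78.9% of +/+. The higher *Syncrip* level made up 5.03 RPKM against 9.20 RPKM of *Hnrnpr* lost, 54.7% of the loss. By coding length the sum was 43.6% of +/+, and the *Syncrip* difference was 19.9% of the loss. In axons the mean sum was 24.2 ± 11.1 RPKM in +/+ and 14.3 ± 2.77 RPKM in Hnrnpr-/- libraries (SD, n = 4). The Hnrnpr-/- sum was 59.1% of +/+ by exon length and 35.04% by coding length. The mean of *Syncrip* was lower in Hnrnpr-/- than in +/+ libraries by 3.07% of the *Hnrnpr* loss on the exon scale. Without +/+ axonal replicate 2, an alternative added after seeing the data, *Syncrip* averaged 12.25 RPKM in +/+ and 14.27 RPKM in Hnrnpr-/- axons, a difference of 31.4% of the loss, or 11.4% by coding length, and the sums were 76.5% and 47.9% of +/+. These shares are descriptions of group means and carry no test.

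**Figure D3:**
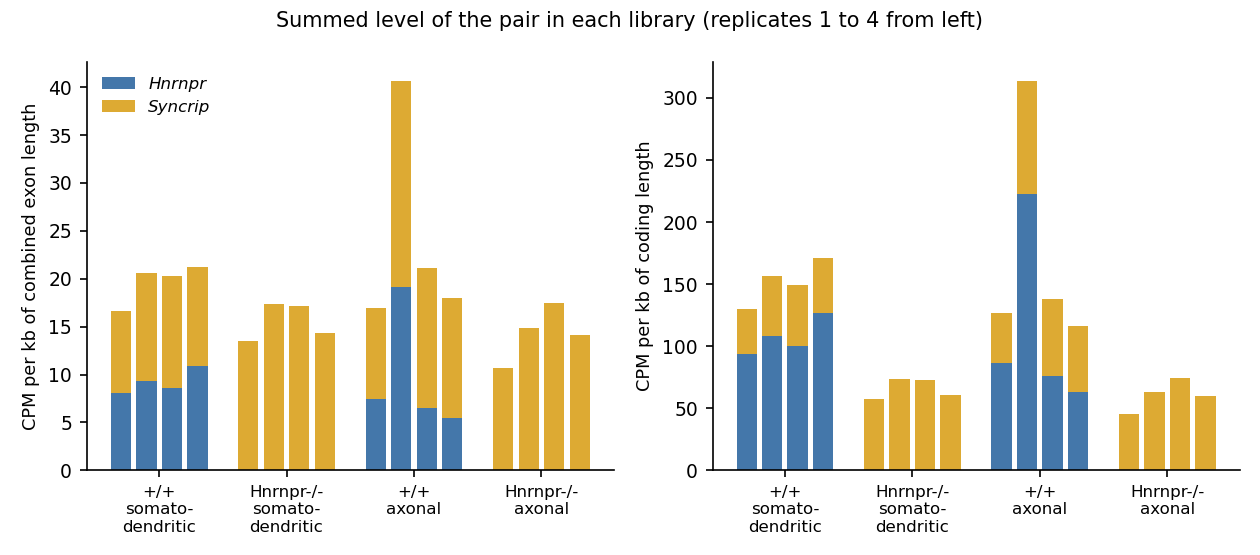
*Hnrnpr* and *Syncrip* stacked in each library, in CPM per kilobase of combined exon length (left) and of coding length (right). Bars are single libraries, replicates 1 to 4 from the left in each group. *Hnrnpr* is too low to be seen in Hnrnpr-/- libraries, and +/+ axonal replicate 2 is the tallest bar on both scales at 40.6 and 313.6 CPM per kilobase.

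The wider hnRNP family, nuclear proteins that package pre-mRNA and act in splicing and export, was compared next. All 25 other family members on the list were tested, and 0 passed the adjusted threshold for genotype in either compartment (edgeR and DESeq2, 0 also at an unadjusted p below 0.05 with either tool). Of all genes 0.00501% and 0.01% passed it with edgeR, and 0.601% and 3.88% had an unadjusted p below 0.05, so that 0 of 25 was near the share of all genes. Their somatodendritic log2 fold changes ran from -0.31 (*Hnrnpl*) to 0.36 (*Ptbp1*) with a median of 0.03, so that all lay below the 0.57 of *Syncrip*. That value came 1369th of all genes tested, so that few of any 25 genes would lie above it. In axons they ran from -0.44 (*Hnrnpdl*) to 0.21 (*Hnrnpm*) with a median of -0.02. The medians of all genes were 0.00 and 0.02.

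Between the compartments of +/+ motoneurons 10 family members were higher in axons and 4 lower, 14 of 25, set against 57.5% of all genes. The highest log2 ratios of axonal to somatodendritic level among those called were 2.40 for *Ptbp1*, a splicing repressor of non-neuronal cells, 1.38 for *Hnrnpf* and 1.02 for *Hnrnpab*. The lowest were -1.38 for *Ptbp2*, its neuronal counterpart, -0.81 for *Pcbp3* and -0.78 for *Hnrnpul2*. Of the astrocyte or radial glia and the fibroblast or meningeal markers, all with positive ratios in these libraries, 4 and 1 were called. Oligodendroglia or Schwann cell markers (3 of 6 positive, median 0.15) and microglia markers (4 of 6, median 0.25) were mixed, as were nuclear RNAs (2 of 5, median -0.45). The part of these cells in the ratios of the family and of the partners was not tested.

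**Figure D4:**
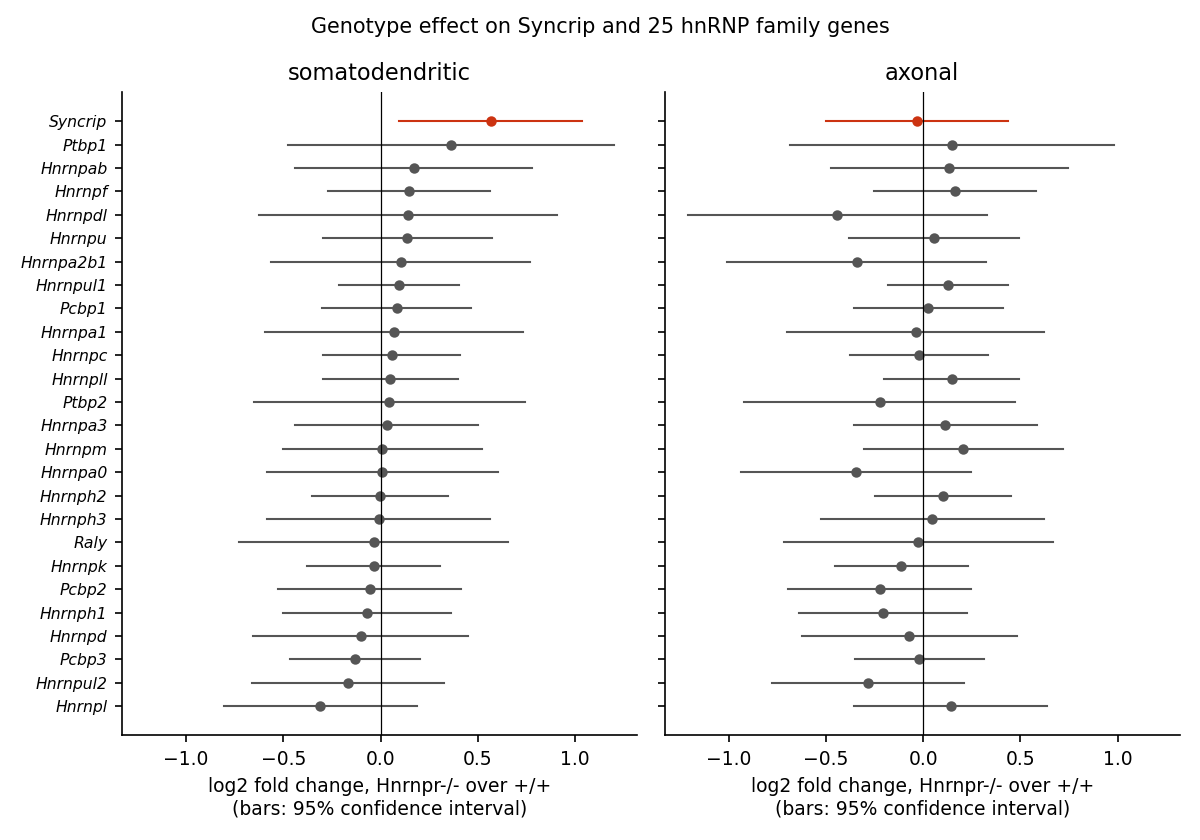
Log2 fold change of Hnrnpr-/- over +/+ in the somatodendritic (left) and axonal (right) compartment for *Syncrip* (red, top) and 25 hnRNP family genes ordered by their somatodendritic value. Bars are 95% confidence intervals from edgeR. The somatodendritic *Syncrip* interval, 0.10 to 1.04, is the one interval in either panel that does not reach 0.

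The nearest relatives of the pair outside the hnRNP nomenclature carry similar RNA recognition motifs and were all scarce. *A1cf*, the cofactor of apolipoprotein B mRNA editing, had 0 to 2 counts per library and was not tested. *Dnd1* and *Rbm46*, known from germ cells, averaged 1.49 to 2.17 and 0.806 to 1.55 CPM over the groups, and *Rbm47*, known from epithelia, 0.182 to 1.28 CPM. None of the 3 passed the adjusted threshold in any comparison (0 with edgeR), beside 0.00501% and 0.01% of all genes for genotype and 57.5% and 54.2% between compartments. In the genotype comparisons 0 had an unadjusted p below 0.05 with edgeR or DESeq2, beside 0.601% (somatodendritic) and 3.88% (axonal) of all genes with edgeR. The log2 fold changes for genotype were -0.20 and -0.54 for *Dnd1*, 0.11 and -0.94 for *Rbm46* and 1.71 and -0.08 for *Rbm47*, in the somatodendritic and axonal compartments respectively.

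Genes whose products are known to act with SYNCRIP or hnRNP R showed no call for genotype either (0 of 8 in each compartment, edgeR and DESeq2, with 0 at an unadjusted p below 0.05), beside the 0.00501% and 0.01% of all genes called. With edgeR 0.601% and 3.88% of all genes had an unadjusted p below 0.05, so that 0 of 8 was near the share of all genes. *Igf2bp1*, *Hnrnpu*, *Ybx1* and *Dhx9* encode partners of SYNCRIP in a complex that stabilises mRNA through its coding region. Their somatodendritic log2 fold changes were 0.41, 0.14, -0.05 and -0.27, and their axonal ones -0.06, 0.06, 0.06 and 0.07. *Eprs*, *Rpl13a* and *Gapdh* are the mouse genes for the other subunits of the human GAIT complex, a translational silencer that includes SYNCRIP. They were at 0.05, -0.004 and 0.13 in the somatodendritic and 0.13, -0.07 and 0.06 in the axonal compartment. *Smn1*, which encodes SMN, was at -0.32 and -0.05.

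Between the compartments of +/+ motoneurons 4 of the 8 partners were higher in axons and 1 lower, beside the 57.5% of all genes. *Igf2bp1* had a log2 ratio of 3.36, *Rpl13a* 1.86, *Smn1* 0.68 and *Gapdh* 0.59, and *Dhx9* was lower at -2.44. *Ybx1* (0.33, adjusted p = 0.175), *Hnrnpu* (0.11, 0.667) and *Eprs* (-0.14, 0.38) did not pass the edgeR test. The glial and fibroblast markers had positive ratios in these same libraries, as given with the hnRNP family.

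The genes around both loci were examined, since the deletion removes a stretch of chromosome 4. Of 28 genes with a midpoint within 500 kb of *Hnrnpr*, 20 were tested and 0 passed the adjusted threshold for genotype in either compartment (edgeR and DESeq2, 0 also at an unadjusted p below 0.05). Of all genes 0.00501% and 0.01% passed it with edgeR, and 0.601% and 3.88% had an unadjusted p below 0.05, so that 0 of 20 was near the share of all genes. The nearest tested gene on the lower side was *Zfp46*, a zinc finger gene with its midpoint at -46.1 kb, at 132.5 CPM in +/+ and 128.5 CPM in Hnrnpr-/- somatodendritic libraries (log2 fold change -0.04, and -0.02 in axons). On the upper side it was LOC118568698, a lncRNA on the opposite strand that overlaps the end of *Hnrnpr*, with its midpoint 30.7 kb away. It was counted at 1.197 ± 0.700 CPM in +/+ and 1.02 ± 0.655 CPM in Hnrnpr-/- somatodendritic libraries (SD, n = 4; log2 fold change -0.23, SE 0.99). Reads of *Hnrnpr* and of genes overlapping it on the other strand may not be separable, as the library kit does not record strand.

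Of 35 genes within 500 kb of *Syncrip*, 10 were tested and 0 passed the adjusted threshold for genotype (edgeR and DESeq2), beside the same shares of all genes. *Gm10634*, at 309.3 kb, was the one gene with an unadjusted p below 0.05 in edgeR (log2 fold change -0.97 in the somatodendritic compartment, edgeR adjusted p = 1), at 0.402 CPM in +/+ and 0.201 CPM in Hnrnpr-/- libraries, and DESeq2 found 0 at that level. *Snx14*, a sorting nexin gene and the nearest tested on the lower side at -58.1 kb, had log2 fold changes of 0.06 and 0.12. The snoRNA LOC115487269, nearest on the upper side at 55.6 kb, had -0.25 and 0.51 at levels below 0.5 CPM. *Nt5e*, named after its values were seen, had a larger somatodendritic value than *Syncrip*, 1.14 with an SE of 1.13, at 0.666 ± 0.378 CPM in +/+ and 1.48 ± 0.474 CPM in Hnrnpr-/- libraries (SD, n = 4).

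**Figure D5:**
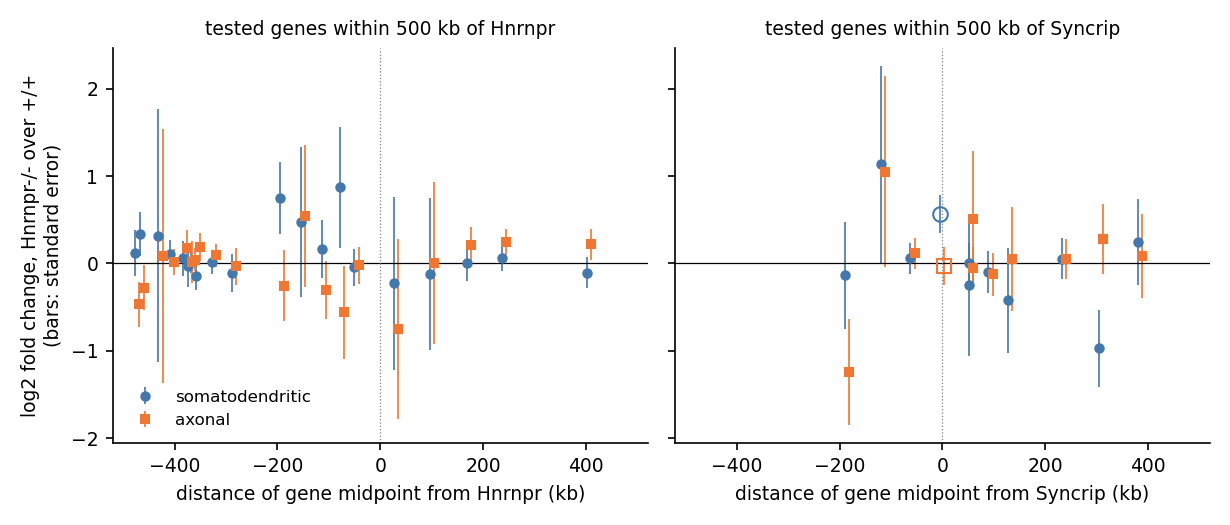
Log2 fold change of Hnrnpr-/- over +/+ for tested genes within 500 kb of *Hnrnpr* (left) and *Syncrip* (right), against the distance of midpoints in kilobases. Circles are somatodendritic and squares axonal values, drawn slightly to the left and right of the true distance, bars are SE, and the open symbols at 0 kb are *Syncrip* itself at 0.57 and -0.03. *Hnrnpr*, at -7.88 and -7.91, is off the scale and not drawn.

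The genes whose levels followed each member most closely were ranked by Pearson's r of log2 CPM, among genes with a mean of at least 10 CPM. For *Syncrip* over all 16 libraries and 11226 other genes these were the pseudogene *Gm12966* (r = 0.846), *Csnk1a1* (casein kinase 1 alpha, 0.832), *Ssr1* (a subunit of the translocon-associated complex, 0.814), *Cfl2* (a cofilin, 0.790) and *Fam204a* (0.788). For *Hnrnpr* over the 8 +/+ libraries and 11225 other genes they were *9330151L19Rik* (r = 0.986), *C130071C03Rik* (0.985), *Arxes1* (0.979), *Bex2* (0.977) and *9930021J03Rik* (0.973), the first pair being lncRNAs. *Syncrip* came 1143rd for *Hnrnpr* over the 8 +/+ libraries, where r was 0.530 and turned to -0.450 without axonal replicate 2, so that these libraries do not settle whether the members follow each other. These correlations describe libraries that share compartment, culture and depth and carry no test.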

How the data were processed

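Raw gene counts of 16 poly(A) RNA-seq libraries from cultured mouse motoneurons were used. The authors trimmed 100-base single-end reads, mapped them to GRCm39 (RefSeq) with STAR 2.7.2b and counted them over exons with featureCounts 1.6.4, sharing multi-mapping and multi-overlapping reads in fractions, with reverse strand set. The deposited values are estimated counts, as the authors made them, in part fractional, and were rounded to whole numbers here. The SMART-Seq v4 kit does not record strand. Library totals were 22024923 to 34864151, and no column of values was left unused (0).

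Groups were taken from the labels. All 16 libraries entered one model of 4 groups in edgeR 4.0.16 (TMM, filterByExpr, quasi-likelihood F-test, Benjamini-Hochberg over 19964 genes, threshold 0.05), run in R 4.3.3 and tested on simulated data. CPM use TMM-scaled totals. A two-sided exact permutation test compared mean CPM. Alternatives were other scalings and filters, unrounded counts, DESeq2 1.42.0, the groups compared alone, replicate blocks and each library left out. Hnrnpr and Syncrip, and all lists, were chosen with earlier results of these data known. Genes named are both members, all tested relatives and partners, family members called for genotype or among the 3 highest or lowest of those called between compartments, the nearest tested genes on each side, neighbours at an unadjusted p below 0.05, overlapping Gm or LOC genes, and the 5 highest correlations. The ends of the genotype ranges of the family were named after their values were seen.

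Whether replicate numbers pair libraries was checked by correlating deviations from group means over genes. Same-numbered somatodendritic and axonal libraries had r of 0.105 to 0.232 in +/+ and 0.17 to 0.484 in Hnrnpr-/-, all above 0.1, and were taken as pairs from the data, since the labels do not state it. Between genotypes r was -0.0532 to 0.34 and 0.00175 to 0.642, and the numbers were not taken as pairs. The paper states, for its experiments in general, that controls and treatments shared a batch of cells. Sequences, transcripts and coding lengths came from GENCODE on GRCm39, the build of the count table, and primers from the study's supplement. Coordinates of both loci are those of the count table.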

Additional observations from a re-analysis of the deposited data

Results flagged for a closer look

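*Hnrnpr* in +/+ axonal replicate 2 stood apart from the other 3 libraries of its group, at 422.1 CPM against 163.8 CPM in the next highest. The gap was 0.855 of the group's range, above Dixon's 95% critical value for 4 samples. Of 10 groups of values examined in this way 1 passed, and chance alone passes about 1 in 20. *Syncrip* was also highest in that library, at 170.0 CPM, and the library was the highest of the 4 for 27.9% of genes tested, against 17.8 to 27.3% for the others. It also had the most counts of all 16 libraries (34864151) and the fewest genes above 0 (23490). The part of these features in the value was not tested.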

How the results depend on the processing

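The loss of *Hnrnpr* passed the threshold in both compartments under all alternatives run, and the somatodendritic *Syncrip* difference stayed positive and short of the adjusted threshold in all of them (edgeR and DESeq2). The log2 ratio of axonal to somatodendritic *Syncrip* in +/+ passed it with library totals (0.62), with a stricter filter on low counts (0.53), with the replicate block (0.44) and with the block by culture (0.42); without single libraries it ran from 0.22 to 0.62 and passed in 3 of 16 fits. Library totals moved the median of all genes in that comparison from 0.07 to 0.22. Uncalled *Hnrnpr* values changed sign: the +/+ compartment ratio was -0.089 with the replicate block and -0.13 with the block by culture, and the difference of genotype effects 0.15 and 0.18. Without single libraries, the *Hnrnpr* compartment ratio ran from -0.52 to 0.30 in +/+ and from -0.14 to 0.20 in Hnrnpr-/-, its difference of genotype effects from -0.23 to 0.55, the axonal *Syncrip* genotype value from -0.18 to 0.22, and the *Syncrip* difference of genotype effects from -0.75 to -0.34. With the mean level of other cell type markers as a covariate, the somatodendritic *Syncrip* value was 0.58. Coding length moved the *Hnrnpr* to *Syncrip* ratio to 2.44 and 1.75 in the +/+ groups. Genes called for genotype in axons were 2, with 1 to 5 over the alternatives, and for the difference 0, with 0 to 1. The replicate block changed no other call of the pair. Apart from the lengths, the cause was not tested. Coding lengths were taken from GENCODE in place of a protein table, a choice made after seeing the data, as were the block by culture, the marker covariate and the somatodendritic fits with libraries left out or blocked. With 4 libraries a group, the interval for *Syncrip* in axons spans ratios of 0.708 to 1.36.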
